A study of Mus musculus with 10 samples.

Results

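The collagen chains are the genes whose symbol reads Col, a number, the letter a and a second number, from Col1a1 to Col28a1. This rule on the symbol alone, which used no measured value, took 44 of the 39017 genes in the deposited count table. Of these, 9 are fibrillar chains (families Col1, Col2, Col3, Col5 and Col11), 6 are basement membrane chains (Col4) and 29 are other chains. The rule goes by family number, so that Col24a1 and Col27a1, which are usually counted with the fibrillar collagens, stand among the other chains.

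The study asked how lung adenocarcinoma of the mouse fares when its tumour cells lose the glucose transporter Glut1, which is encoded by Slc2a1. RNA was sequenced from 10 lung tumours, 5 called KP and 5 called KPG1 here. KPG1 tumours carried the floxed Glut1 allele on both chromosomes (homozygous fl/fl). For the controls, the KP tumours, the labels give heterozygous fl/wt as genotype while other labels call the same samples wild type. The remaining engineered alleles are shared by the groups. All mice were male C57BL/6, and tumours were taken 18 weeks and 6 days after intratracheal Ad5SPC-Cre, an adenovirus that makes Cre recombinase from the promoter of surfactant protein C, so that recombination starts in alveolar type 2 cells. Tumours were dissected, dissociated and depleted of CD45+ leukocytes with beads. The other cells of the tumour, fibroblasts and vessels included, stayed in the sample, and Cre was not directed to them. The labels do not say whether each tumour came from its own mouse. The p-values set the difference between groups against the spread between these tumours. They would not extend to mice if tumours shared a mouse.

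Libraries held 32427029 to 49534284 counted reads. Levels are CPM, each count as its share of the library on the usual scale for RNA-seq, with libraries scaled by the trimmed mean of M-values (TMM), and level per length is CPM per kilobase of exon. Slc2a1 stood at 71.7 to 126.9 CPM in KP and 40.8 to 66.8 CPM in KPG1, with no overlap (log2 fold change -1.01 ± 0.20 (SE), adjusted p = 0.0675). KP 1 and KP 5 stood at opposite ends of the first principal component, which held 28% of the variance. The 9 epithelial markers (surfactant genes, keratins, Cdh1, Epcam and Nkx2-1) summed to 21740 to 75597 CPM. Of them, 1 was higher and 3 were lower in KPG1 at an unadjusted p under 0.05, against 5.26% and 6.31% of all genes tested. Ptprc, which encodes CD45, stood at 5.21 to 10.97 CPM.

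Collagens are secreted proteins of 3 chains wound around each other, and each chain is built from repeats of glycine and 2 further residues (Gly-X-Y). Fibrillar collagens assemble into the cables that give tissue its tensile strength and are made chiefly by fibroblasts. Collagen IV forms the sheet-like network of the basement membrane under epithelium and endothelium, and in the lung it lies between alveolar cell and capillary. Chains are hydroxylated and folded in the endoplasmic reticulum, trimmed outside the cell, crosslinked, and later broken down by metalloproteinases and cathepsins.

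The classes differ in their protein before any measurement. In the longest coding transcript of the GENCODE M21 annotation, the longest uninterrupted run of Gly-X-Y was 337 to 344 triplets in the 9 fibrillar chains. In the 6 collagen IV chains the repeat was broken into 23 to 27 runs (each of at least 3 triplets), and the longest held 39 to 66 triplets. Among the other chains the longest run ranged from 23 triplets in Col26a1 to 217 in Col27a1.

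Promoters are shown for Col4a1 and Col4a2, the pair with the steadiest ratio from tumour to tumour, and for Col1a2 and Col3a1 as leading fibrillar chains. Col4a1 (chr8:11198423-11312826, minus strand) and Col4a2 (chr8:11312805-11449287, plus strand) lie head to head on mouse chromosome 8, and their RefSeq start sites are 21 bases apart. Their windows of 300 bases, 250 before and 50 after the start site, share 78 bases. Col1a2 (chr6:4504814-4541544) and Col3a1 (chr1:45311538-45349706), both on the plus strand, encode a chain of collagen I and the only chain of collagen III. The sequences are from RefSeq on GRCm38.p6 (mm10), and capitals mark the motif CCAAT, the motif GGGCGG or the motif TATAAA on either strand.
Col4a1 promoter, chr8:11312777-11313076, minus strand: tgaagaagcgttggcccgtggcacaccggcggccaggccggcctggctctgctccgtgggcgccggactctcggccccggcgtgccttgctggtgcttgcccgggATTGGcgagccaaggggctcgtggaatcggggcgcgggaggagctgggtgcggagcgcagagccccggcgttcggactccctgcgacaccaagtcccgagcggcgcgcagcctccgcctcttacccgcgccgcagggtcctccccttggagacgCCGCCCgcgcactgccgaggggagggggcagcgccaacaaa
Col4a2 promoter, chr8:11312555-11312854, plus strand: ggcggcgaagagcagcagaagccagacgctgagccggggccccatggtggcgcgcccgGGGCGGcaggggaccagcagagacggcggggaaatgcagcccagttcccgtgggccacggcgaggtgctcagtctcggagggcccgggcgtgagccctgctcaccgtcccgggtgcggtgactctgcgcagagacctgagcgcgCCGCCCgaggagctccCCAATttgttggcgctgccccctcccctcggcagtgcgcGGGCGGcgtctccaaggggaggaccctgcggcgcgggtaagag
Col1a2 promoter, chr6:4505368-4505667, plus strand: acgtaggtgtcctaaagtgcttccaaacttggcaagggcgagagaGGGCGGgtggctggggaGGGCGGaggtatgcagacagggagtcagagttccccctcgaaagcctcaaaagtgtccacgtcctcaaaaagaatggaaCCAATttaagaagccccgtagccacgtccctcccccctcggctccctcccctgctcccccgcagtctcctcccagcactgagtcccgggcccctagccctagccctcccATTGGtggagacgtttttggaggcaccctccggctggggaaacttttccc
Col3a1 promoter, chr1:45311288-45311587, plus strand: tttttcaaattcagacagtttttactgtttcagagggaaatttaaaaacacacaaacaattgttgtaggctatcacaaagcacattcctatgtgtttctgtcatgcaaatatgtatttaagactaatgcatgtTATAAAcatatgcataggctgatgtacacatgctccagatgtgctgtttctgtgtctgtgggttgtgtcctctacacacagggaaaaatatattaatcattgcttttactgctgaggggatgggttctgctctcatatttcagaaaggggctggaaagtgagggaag

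The Col4a2 window held GGGCGG 3 times and the Col1a2 window held CCAAT 2 times, whereas the Col3a1 window held TATAAA once and neither of the other motifs. Over 38 windows of 35 members that matched, 34.2% held CCAAT, 60.5% GGGCGG and 13.2% TATAAA. Over all 32851 RefSeq windows of the same length the shares were 37.4%, 35.7% and 13.6%.

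Basement membrane chains made up most of the collagen mRNA in every tumour. Col4a1 and Col4a2, which encode the chains of the common collagen IV network, together took 62.7% to 72.3% of all collagen counts in each library. Fibrillar chains took 3.36% to 8.41% in KP and 5.14% to 7.08% in KPG1. Col18a1 alone took 6.67% to 11.5% in KP and 9.70% to 17.1% in KPG1. Counts summed over all 44 members came to 3475 ± 997 CPM in KP and 4172 ± 920 CPM in KPG1 (SD, n = 5 each), or 0.351% and 0.418% of the library. The groups overlapped, and the highest sum, 5798 CPM in KPG1 1, stood apart from the other 4 KPG1 tumours at 3639 to 3995 CPM.

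**Figure D1:**
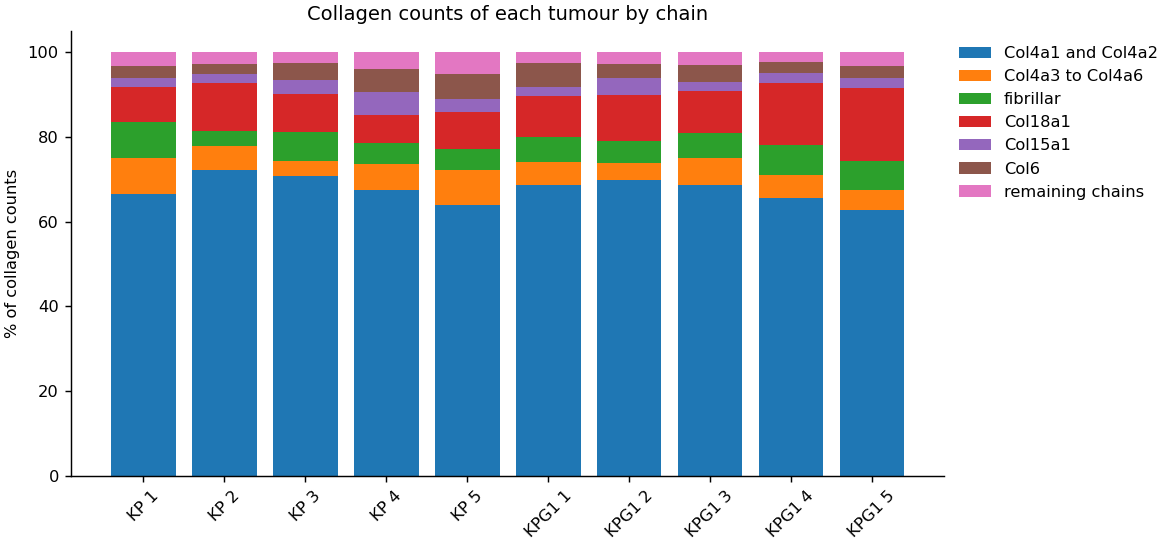
Share of the collagen counts of each tumour (y axis, %) taken by each chain or group of chains, with 1 stacked bar per library. Col4a1 and Col4a2 (lowest segment) take 62.7% to 72.3% in every tumour, and longer mRNAs give more reads, so that segments are shares of reads and not of molecules.

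Per length, Col4a1 and Col4a2 had the highest mean levels of all members, at 224 and 139.9 CPM per kb over the 10 tumours. Col18a1 followed at 58.5, Col6a1 at 17.5, Col15a1 at 16.7 and Col4a5 at 10.2 CPM per kb. Col1a1 stood at 8.09 CPM per kb. For Col1a2 and Col3a1 the length matters: their exon union is longer than their longest transcript (12426 against 5348 bases and 9816 against 5564), and the level was 4.45 and 5.53 CPM per kb of union but 10.3 and 9.76 CPM per kb of the longest transcript. The length also mattered for 4 other named chains. Per kb of union and of longest transcript, Col5a2 stood at 3.85 and 5.58 CPM and Col6a2 at 2.43 and 4.13 CPM. Col8a1 stood at 1.68 and 2.58 CPM and Col12a1 at 1.66 and 2.20 CPM. Per kb of the longest transcript, Col15a1 (20.5 CPM) lay above Col6a1 (18.7 CPM). The lowest tested chain was Col25a1 at 0.0185 CPM per kb of union.

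**Figure D2:**
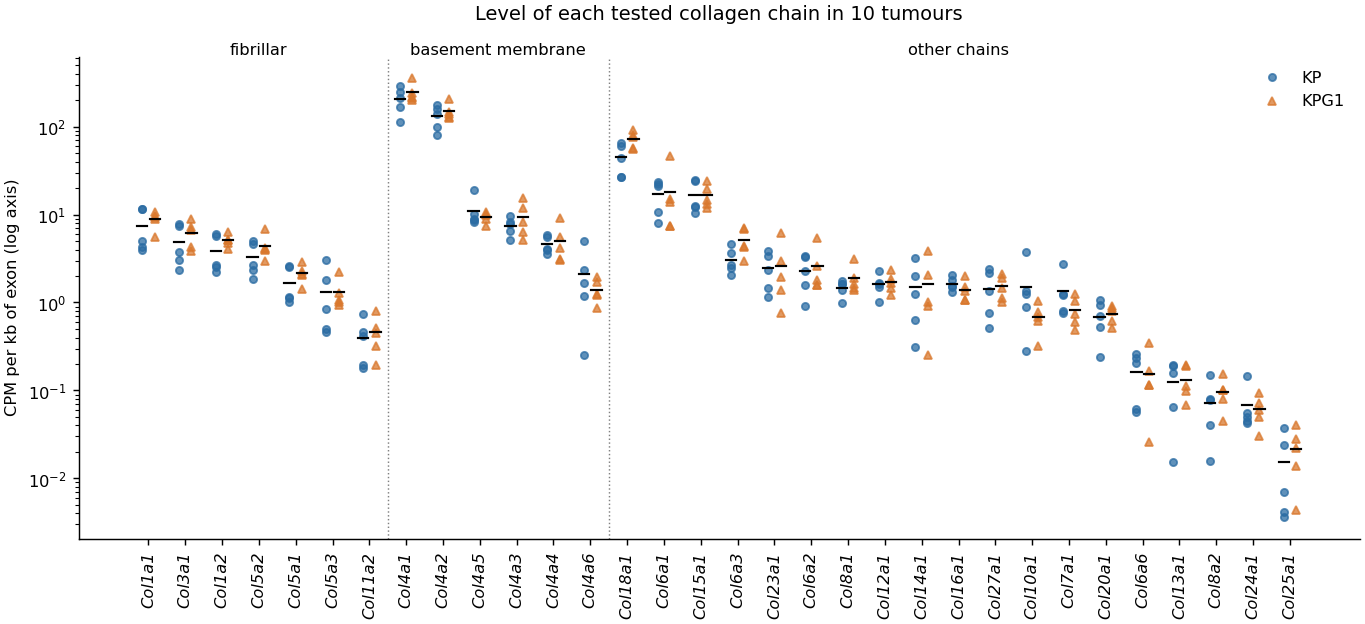
Level per length (CPM per kb of exon, log axis) of the 32 tested chains in the 5 KP (circles) and 5 KPG1 (triangles) tumours, ordered by class and mean level, with black bars at the group means. Within each of the 10 tumours Col4a1, Col4a2 and Col18a1 lie above the other chains, and the groups overlap for each chain shown.

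Of the 44 members, 12 were too low to test. A gene was tested when it reached 0.254 CPM in at least 5 libraries. Col19a1 had no count in any tumour, which allows a level of up to 0.0606 to 0.0925 CPM (3 counts per library, counting error only). Among the fibrillar chains, Col2a1 (cartilage collagen II) reached at most 25 counts and Col11a1 at most 38. The other 9 were Col6a4 and Col17a1 (at most 3 counts each), Col9a1, Col9a2 and Col22a1 (5), Col26a1 (6), Col28a1 (12), Col9a3 (15) and Col6a5 (22). Col17a1 is the hemidesmosome collagen of basal epithelium, and the Col9 chains coat collagen II fibrils in cartilage.

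The low counts were not spread evenly. Col2a1 had 14 counts in KP 1 and 25 in KP 4 against 0 to 6 in the other 8 tumours. KP 4 also had the highest level of Acan, the aggrecan of cartilage (chosen after its values were seen), at 49.3 CPM. Acan stood at 4.25 CPM in KP 1, 0.57 in KP 2, 14.6 in KP 3 and 7.69 in KP 5. In KPG1 it stood at 0.39 CPM at most. Hapln1, of the same marker list, was lowest in KP 4, at 1.37 CPM, and reached 4.37 CPM elsewhere. Comp, Lect1 and Matn1 stood at or below 0.32, 0.07 and 0.03 CPM in every tumour. Chondrocyte markers (4 of 7 tested) summed to 25.0 to 82.5 CPM in KP and 30.5 to 66.7 CPM in KPG1. At an unadjusted p under 0.05, 1 member was higher and 1 lower in KPG1, against 5.26% and 6.31% of all genes. Most of the chondrocyte sum in KPG1 was Sox9, at 27.1 to 63.7 CPM there and 22.4 to 40.6 CPM in KP. The part of these markers in the Col2a1 counts was not tested. Col11a1 had 38 counts in KPG1 1 and 23 in KPG1 4 and at most 7 elsewhere.

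No collagen chain passed the test between KPG1 and KP. With limma on voom values and Benjamini-Hochberg adjustment over 16216 genes, 0 of the 32 tested members had an adjusted p under 0.05, against 0.173% of all tested genes, and their adjusted p ran from 0.327 to 0.989. At an unadjusted p under 0.05, 2 members were higher in KPG1, Col18a1 and Col6a3, which is 6.25% of members against 5.26% of all genes. None was lower, against 6.31% of all genes. For no member did the groups fail to overlap, against 2.81% of all genes. By edgeR and DESeq2 the count past the adjusted threshold was also 0. Without KP 4, or with a quality weight per library, no member had an unadjusted p under 0.05.

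The fitted change was above 0 for 23 of 32 members (71.9%), against 52.7% of all genes. The median log2 fold change was 0.44 over fibrillar chains, 0.12 over basement membrane chains and 0.08 over the other chains, with 0.02 over all genes. Members vary together and share their libraries, so that these counts describe the list and carry no test. Without KP 5, 51.5% of members were above 0, against 50.5% of all genes, and with quality weights 56.2%, against 52.7%. The median for fibrillar chains was 0.21 without KP 5 and 0.65 without KP 1, the median for basement membrane chains was -0.06 without KPG1 1, and the median for the other chains was -0.09 without KP 5. The spread within groups was wider for members than for genes at large, with a median SD of 0.65 on the log2 scale against 0.35.

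**Figure D3:**
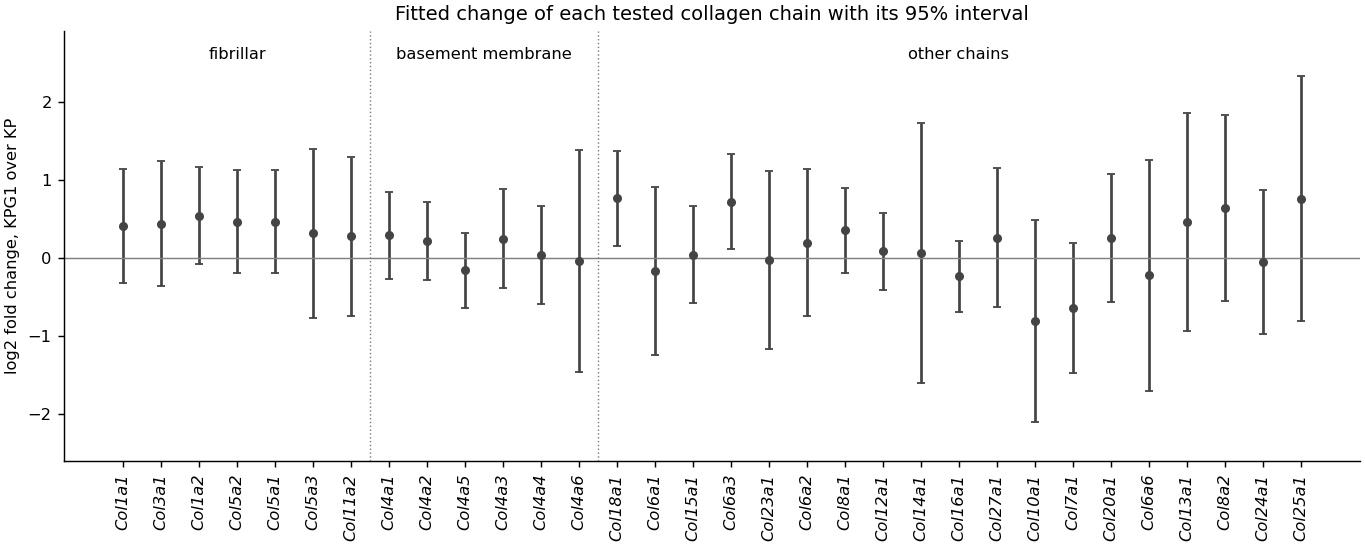
Fitted log2 fold change of KPG1 over KP (y axis) for the 32 tested chains, with bars for the 95% interval of the limma fit. All 7 fibrillar chains lie above 0 with intervals that include 0, and the intervals of Col18a1 and Col6a3 alone lie wholly above 0 before adjustment.

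The fibrillar chains gave fitted changes from 0.27 to 0.54 on the log2 scale, all 7 above 0 and none past the test. Col1a1, the main chain of collagen I, stood at 76.7, 28.2, 76.7, 32.8 and 26.04 CPM in KP 1 to KP 5 and at 71.00, 36.6, 62.7, 62.1 and 58.1 CPM in KPG1 1 to KPG1 5. KP 1 and KP 3 lay above every KPG1 tumour, and the other 3 KP tumours lay below every one. Its log2 fold change was 0.41 ± 0.33 (SE, adjusted p = 0.668), with a 95% interval from -0.32 to 1.14, and it was 0.21 without KP 5 and 0.63 without KP 1.

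Its partner Col1a2 stood at 70.4, 31.7, 73.9, 33.1 and 27.3 CPM in KP and 79.1, 63.96, 50.5, 59.2 and 64.3 CPM in KPG1, with a log2 fold change of 0.54 ± 0.28 (SE, adjusted p = 0.493). The KP tumours were split in the same way, and the lowest KPG1 tumour lay above 3 of the 5 KP tumours. Col3a1, which forms the finer fibrils of collagen III, stood at 73.3, 29.6, 76.9, 36.9 and 22.7 CPM in KP and 87.3, 37.3, 42.00, 70.5 and 66.3 CPM in KPG1, with a change of 0.44 ± 0.36 (SE, adjusted p = 0.676). KPG1 2 and KPG1 3 were low for Col3a1, near the level of KP 4. Without KP 5 the change was 0.36 for Col1a2 and 0.19 for Col3a1. Gm43921 overlaps Col1a2 and Gm47302 overlaps Col3a1 on the same strand, and their reads cannot be told apart where they overlap.

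The Col5 chains, which join collagen I fibrils and limit their width, followed the same tumours. Col5a1 stood at 21.4, 9.55, 21.98, 9.87 and 8.57 CPM in KP and 24.2, 12.05, 19.5, 18.00 and 17.6 CPM in KPG1, with a change of 0.46 ± 0.30 (SE, adjusted p = 0.588). Col5a2 stood at 48.5, 25.6, 44.9, 22.7 and 17.7 CPM in KP and 64.97, 28.7, 38.04, 38.9 and 39.5 CPM in KPG1, with a change of 0.46 ± 0.30 (SE, adjusted p = 0.584). Both were high in KP 1, KP 3 and KPG1 1, and without KP 5 their changes were 0.28 and 0.26. Col5a3, a chain of a rarer collagen V, stood at 20.6, 5.72, 12.1, 3.19 and 3.42 CPM in KP and 8.72, 6.33, 15.1, 6.97 and 7.24 CPM in KPG1. Its log2 fold change was 0.31 ± 0.49 (SE, adjusted p = 0.847), which was 0.03 without KP 4 and 0.72 without KP 1. By edgeR and DESeq2 it lay below 0, at -0.02 and -0.03. Col11a2 ranged from 1.23 to 5.48 CPM with a change of 0.27 ± 0.47 (SE, adjusted p = 0.859).

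The summed fibrillar level was 314, 133.7, 312, 140.4 and 107 CPM in KP 1 to KP 5 and 338, 187, 234, 260.0 and 256 CPM in KPG1. KP 2, KP 4 and KP 5 lay below every KPG1 tumour, while KP 1 and KP 3 lay above 4 of the 5. Fibroblast markers (12 of 14 tested) summed to 85.5 to 107 CPM in KP and 80.1 to 122 CPM in KPG1. The members of this list differed widely in level. Dpt, Lum and Tcf21 stood at or below 1.13, 1.39 and 0.32 CPM in every tumour. Over the 10 tumours Pdgfra stood at 4.05 to 6.27, Scara5 at 14.1 to 44.5, Pdgfrb at 18.8 to 48.1 and Gpx3 at 19.4 to 48.5 CPM. Pericyte and smooth muscle markers (10 of 10) summed to 120.6 to 364 and 175 to 352 CPM, with KP 1 highest and KP 5 lowest. Activated fibroblast markers (6 of 7) summed to 54.6 to 138 and 65.8 to 144 CPM, most of it Postn and Tnc. Of these 6 markers, 2 were higher and 1 was lower in KPG1 at an unadjusted p under 0.05, and 0 passed the adjusted threshold. At that unadjusted p, 5.26% of all genes were higher and 6.31% lower. Of the 6 tested activated fibroblast markers, 2 had a fitted change above 0, against 52.7% of all genes. Cthrc1 (chosen after its values were seen) stood at 1.89 to 3.86 CPM in KP and 5.63 to 7.88 CPM in KPG1. Its groups did not overlap, as for 2.81% of all genes. Inhba (also chosen after its values were seen) stood at 1.16 to 18.0 CPM in KP and 0.77 to 1.62 CPM in KPG1. No marker of these lists was at 0 in all tumours, and their part in the fibrillar levels was not tested. In such bulk samples, fewer cells of a type and less RNA per cell cannot be told apart.

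**Figure D4:**
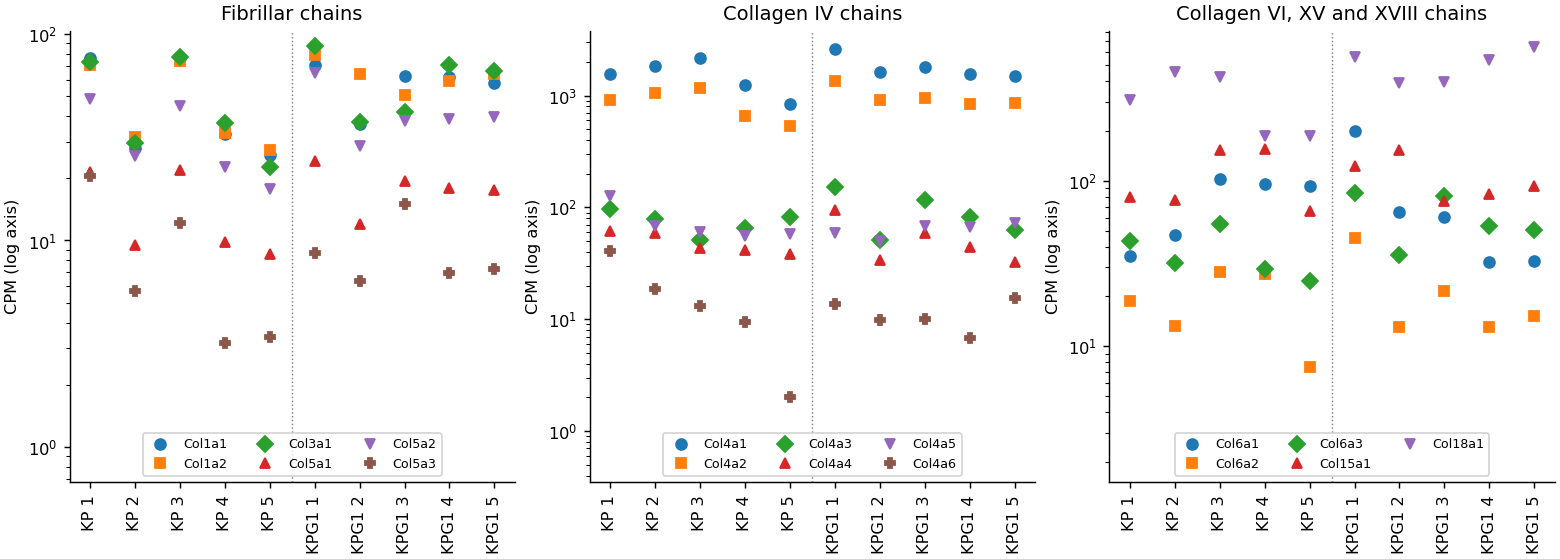
CPM (log axis) of 17 named chains in each tumour, in panels for fibrillar chains, collagen IV chains and collagen VI, XV and XVIII chains, with a dotted line between KP and KPG1. The 6 fibrillar chains shown are low together in KP 2, KP 4 and KP 5, and Col4a6 is far lower in KP 5 (2.00 CPM) than elsewhere.

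None of the 6 collagen IV chains passed the test, with fitted changes from -0.16 to 0.29 on the log2 scale. Col4a1 stood at 1566, 1825, 2157, 1242 and 844 CPM in KP and 2626, 1622, 1792, 1571 and 1498 CPM in KPG1, with a log2 fold change of 0.29 ± 0.25 (SE, adjusted p = 0.697) and a 95% interval from -0.27 to 0.84. Col4a2 stood at 917, 1051, 1170, 659 and 532 CPM in KP and 1355, 921, 957, 837 and 858 CPM in KPG1, with a change of 0.22 ± 0.23 (SE, adjusted p = 0.755). For both, KPG1 1 was the highest tumour and KP 5 the lowest. Without KP 5 their changes were 0.08 and 0.04, and with a quality weight per library 0.01 and -0.03. The strand setting of the counting is not given in the sources used here, so that reads from the overlapping starts of both genes cannot be told apart.

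Col4a3, Col4a4 and Col4a5 form the network of the alveolar and glomerular basement membrane, and Col4a5 also pairs with Col4a6. Col4a3 stood at 96.1, 78.7, 50.7, 64.9 and 81.9 CPM in KP and 153, 50.98, 117, 82.1 and 63.1 CPM in KPG1, with a change of 0.24 ± 0.29 (SE, adjusted p = 0.789). Col4a4 stood at 61.6, 59.6, 42.97, 41.8 and 38.2 CPM in KP and 95.6, 33.6, 59.4, 44.1 and 32.4 CPM in KPG1, with a change of 0.03 ± 0.29 (SE, adjusted p = 0.979). KPG1 1 was highest for both chains, and without it the changes were 0.02 for Col4a3 and -0.23 for Col4a4. Col4a5 stood at 126, 68.8, 60.3, 55.6 and 57.6 CPM in KP and 59.2, 49.97, 67.5, 66.7 and 72.5 CPM in KPG1, with a change of -0.16 ± 0.22 (SE, adjusted p = 0.820). KP 1 stood apart from all other tumours for Col4a5, and without it the change was 0.06. Col4a6 stood at 40.4, 18.7, 13.2, 9.54 and 2.00 CPM in KP and 13.6, 9.80, 10.04, 6.83 and 15.4 CPM in KPG1, with a change of -0.04 ± 0.65 (SE, adjusted p = 0.989). It ranged 20.2-fold over the 10 tumours, and its change was -0.72 without KP 5 and 0.45 without KP 1.

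Endothelial markers are of cells that lay down collagen IV and XVIII. They summed to 501 to 1407 CPM in KP and 662 to 1933 CPM in KPG1. Of them, 11 of 11 had a fitted change above 0, against 52.7% of all genes, with none at an adjusted p under 0.05. The same count was 9 of 10 for pericyte and smooth muscle markers and 7 of 12 for fibroblast markers. It was 2 of 6 for activated fibroblast markers and 0 of 3 for mesothelial markers. KPG1 1 had the highest endothelial sum and the highest collagen IV sum (4302 CPM), and KP 5 had the lowest of both (1556 CPM for collagen IV). This was not particular to endothelium. KPG1 1 was also highest for the fibroblast, activated fibroblast, epithelial, alveolar type 1 and immune sums, and KP 5 was lowest for the pericyte and smooth muscle sum. No endothelial marker was at 0 in all tumours, and the part of these markers in the collagen IV and Col18a1 levels was not tested. Of the remaining lists, mesothelial markers (3 of 6 tested) summed to 106 to 327 CPM in KP and 94.2 to 243 CPM in KPG1, alveolar type 1 markers (7 of 7) to 1720 to 3934 and 2294 to 3958 CPM, and Schwann markers (3 of 5) to 4.32 to 6.97 and 4.19 to 8.81 CPM. Immune markers (7 of 8) summed to 468 to 3603 and 2055 to 6213 CPM, most of it Lyz2, which alveolar type 2 cells also express. At an unadjusted p under 0.05, 2 immune markers were lower and 0 higher in KPG1, against 6.31% and 5.26% of all genes. Of the 2 lower markers, Itgam (chosen after its values were seen) stood at 6.15 to 16.6 CPM in KP and 2.51 to 5.80 CPM in KPG1. Fitted changes were above 0 for 3 of 7 tested immune markers, against 52.7% of all genes. The median immune sum was 2057 CPM in KP and 3190 CPM in KPG1.

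Col18a1 and Col6a3 had the smallest p of all members. Col18a1, the core of a basement membrane proteoglycan whose end can be released as endostatin, stood at 310.3, 458, 425, 188 and 188 CPM in KP and 562, 394, 399, 539 and 644 CPM in KPG1. KP 4 and KP 5 were low, and KP 2 and KP 3 lay above KPG1 2 and KPG1 3. Its log2 fold change was 0.76 ± 0.28 (SE, adjusted p = 0.327), with an unadjusted p of 0.0182. The change ranged from 0.59 without KP 5 to 0.92 without KP 2. Slc19a1 and Gm7775 overlap Col18a1 on the opposite strand.

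Col6a3, the long chain of the beaded filaments of collagen VI, stood at 43.5, 31.99, 54.7, 29.3 and 24.7 CPM in KP and 84.4, 35.5, 80.9, 53.01 and 50.6 CPM in KPG1. Its change was 0.72 ± 0.28 (SE, adjusted p = 0.357), with an unadjusted p of 0.0245. KPG1 1 and KPG1 3 were high, and the other 3 KPG1 tumours lay within the KP range. Col6a1 stood at 35.03, 46.9, 103, 96.4 and 93.3 CPM in KP and 199.9, 64.97, 60.6, 32.2 and 32.6 CPM in KPG1, with a change of -0.17 ± 0.49 (SE, adjusted p = 0.919). By edgeR and DESeq2 the change of Col6a1 was 0.06. Col6a2 stood at 18.7, 13.3, 28.03, 27.2 and 7.51 CPM in KP and 44.95, 13.1, 21.6, 13.00 and 15.1 CPM in KPG1, with a change of 0.19 ± 0.43 (SE, adjusted p = 0.895). For these chains KPG1 1 was the highest tumour, and without it the change of Col6a2 was -0.15.

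Col15a1, a vessel-associated relative of Col18a1, stood at 79.9, 76.6, 154, 155 and 65.96 CPM in KP and 123, 153, 76.1, 83.7 and 93.5 CPM in KPG1, with a change of 0.04 ± 0.28 (SE, adjusted p = 0.970). Col7a1, the anchoring fibril under epithelium, stood at 12.6, 7.73, 12.8, 8.24 and 28.04 CPM in KP and 10.7, 5.02, 12.7, 7.54 and 6.11 CPM in KPG1. KP 5 was the only tumour above 13 CPM for Col7a1. Its change was -0.64 ± 0.38 (SE, adjusted p = 0.542), and -0.35 without KP 5. Col8a1, a chain of the network of vessel walls, stood at 13.6, 12.7, 10.7, 12.7 and 7.69 CPM in KP and 24.3, 10.9, 12.6, 11.5 and 14.7 CPM in KPG1, with a change of 0.35 ± 0.25 (SE, adjusted p = 0.623), or 0.13 without KPG1 1.

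Col12a1, which binds to the surface of collagen I fibrils, stood at 25.3, 15.6, 23.04, 24.5 and 34.95 CPM in KP and 35.7, 25.4, 28.3, 18.5 and 22.1 CPM in KPG1, with a change of 0.08 ± 0.23 (SE, adjusted p = 0.917). Col23a1, a membrane-spanning collagen, stood at 8.44, 22.2, 19.6, 6.70 and 13.5 CPM in KP and 35.1, 16.8, 11.2, 4.40 and 7.86 CPM in KPG1, with a change of -0.03 ± 0.52 (SE, adjusted p = 0.989). Col12a1 ranged 2.30-fold over the 10 tumours and Col23a1 7.97-fold. By edgeR and DESeq2 the change of Col23a1 was 0.10, and that of Col15a1 was -0.01 and -0.02.

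The remaining 10 tested chains of this class, Col6a6, Col8a2, Col10a1, Col13a1, Col14a1, Col16a1, Col20a1, Col24a1, Col25a1 and Col27a1, reached at most 31.0 CPM in any tumour, and none passed the test. Their fitted changes ran from -0.81 ± 0.59 (SE, adjusted p = 0.629) for Col10a1 to 0.76 ± 0.71 (SE, adjusted p = 0.721) for Col25a1. Col25a1 had only 2 to 23 counts per tumour. Col10a1, the collagen of hypertrophic cartilage, was highest in KP 1 at 11.8 CPM and ranged 13.5-fold over the 10 tumours. Nt5dc1 overlaps Col10a1 on the opposite strand, and DESeq2 gave Col10a1 an unadjusted p under 0.05.

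Ratios within a tumour show which chains kept step. Col4a1 to Col4a2, the head-to-head pair, held a ratio of counts from 1.59 to 1.94 over the 10 tumours, with an SD of the log2 ratio of 0.087 against 0.44 and 0.39 for each chain alone. Col5a1 to Col5a2 had an SD of 0.15 against 0.56 for each chain. Col1a1 to Col1a2 ranged from 0.89 to 1.09 in KP but from 0.57 in KPG1 2 to 1.24 in KPG1 3.

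The SD of the log2 ratio was 0.25 for Col3a1 to Col1a1, 0.27 for Col4a3 to Col4a4 and 0.30 for Col1a1 to Col1a2. It lay between 0.77 and 0.98 for the other 4 pairs. Of these, Col8a1 to Col8a2 had an SD of 0.90. Col8a2 had only 3 to 27 counts per tumour, so that counting error enters this SD. Col4a3 to Col4a4 ranged from 1.18 to 2.14, and Col4a5 to Col4a6 from 3.13 to 28.6, the last in KP 5. Col6a1 to Col6a2 ranged from 1.87 to 12.4, again with KP 5 highest, and Col6a3 to Col6a1 from 0.26 to 1.65. Over 9 ratios no difference between groups passed a 2-sided exact permutation test over all arrangements of the 10 tumours, with adjusted p from 0.667 to 0.968. The closest was Col6a3 to Col6a1, at a mean log2 ratio of -0.96 ± 0.91 in KP and -0.07 ± 0.92 in KPG1 (SD, n = 5, exact p = 0.167).

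**Figure D5:**
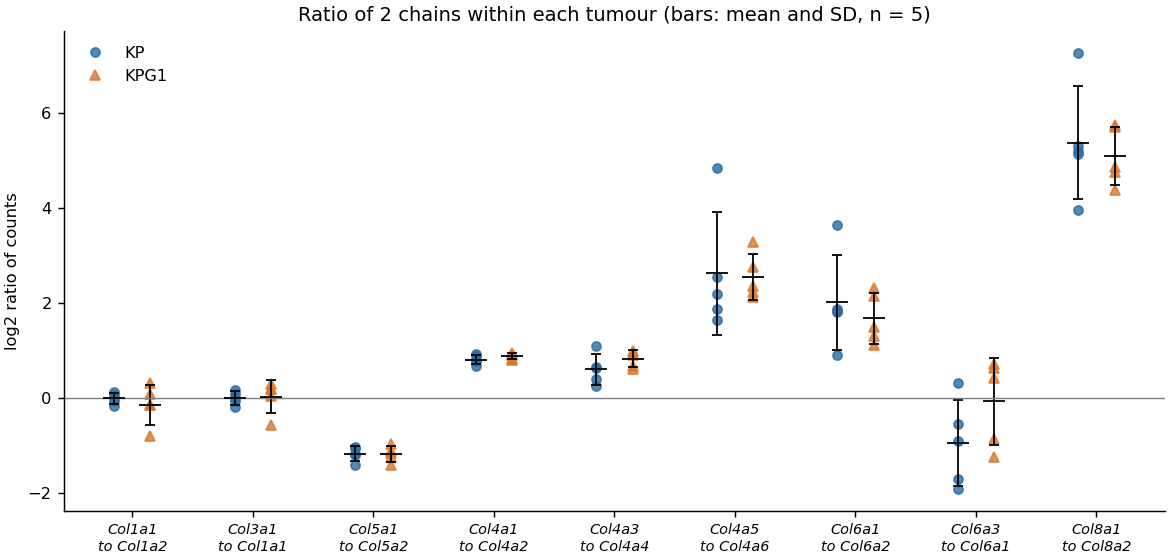
Log2 ratio of the counts of chain pairs (y axis) in each KP (circles) and KPG1 (triangles) tumour, with the mean and SD of each group (n = 5). By SD over the 10 tumours, Col4a1 to Col4a2 is tightest (0.087) and Col6a3 to Col6a1 widest (0.98), and the groups overlap in every pair.

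The genes that make, trim, break down and bind collagen gave 0 of 78 tested members past the adjusted threshold. At an unadjusted p under 0.05, 5.26% of all genes were higher and 6.31% lower. In the list of collagen making, 3 of 28 had an unadjusted p under 0.05, all higher in KPG1: Creb3l2, a transcription factor for secretory cargo (0.41 ± 0.13), the prolyl isomerase Fkbp14 (0.58 ± 0.18) and the disulphide isomerase Pdia4 (0.32 ± 0.13). Of trimming and crosslinking genes, 1 of 18 had a p under 0.05, Dcn, the fibril-binding decorin, at 0.75 ± 0.32.

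Of breakdown genes, 3 of 20 had a p under 0.05, all lower in KPG1 (6.31% of all genes were lower): the cathepsin Ctsl (-0.80 ± 0.17), the gelatinase Mmp9 (-1.82 ± 0.82) and the collagenase Mmp13 (-0.85 ± 0.39). Mmp9 stood at 16.5 CPM in KP 1 and at most 4.15 CPM elsewhere, with a change of -1.12 without KP 1, and Mmp13 gave -0.49 without KPG1 1. Ctsl stood at 305 to 597 CPM in KP and 212 to 275 CPM in KPG1 with no overlap, at an adjusted p of 0.0961, and DESeq2 gave an adjusted p of 0.000948 for Ctsl and 0.0144 for Mmp9. Of receptors, 1 of 12 was higher, the fibroblast receptor Ddr2 (0.58 ± 0.24, or 0.37 without KPG1 1), and 1 lower, the epithelial integrin chain Itga2 (-0.69 ± 0.28). The median log2 fold change was 0.10 for making, 0.27 for trimming and crosslinking, and -0.10 for breakdown and for receptors, with 0.02 over all genes.

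The number in the sample labels, whose meaning is not stated, ran from 6 to 16 in KP and from 1 to 10 in KPG1. Since it was mostly higher in KP, it cannot be fully told apart from the group. With it as a term in the fit, 9 members were higher in KPG1 at an unadjusted p under 0.05 (28.1%, against 4.62% of all genes) and 1 lower, Col7a1 (3.12%, against 5.29%). The higher ones were Col1a2, Col3a1, Col4a1, Col5a1, Col5a2, Col6a2, Col6a3, Col8a1 and Col18a1. The lowest adjusted p of a member was 0.371 in that fit. The members vary together, so that these counts describe the list and carry no test.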

How the data were processed

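Lung tumour RNA (TruSeq stranded mRNA kit, NextSeq 500, single-end) was sequenced in 10 libraries. According to its methods and GEO's labels, the authors of the study trimmed reads with cutadapt (1.4.2 in the processing notes), aligned them with HISAT2 to mm10 and counted them per gene with featureCounts 1.4.4; the deposited values are raw counts. The annotation release is not given in the sources used here. The deposited log2 table holds the authors' voom values of the same counts and was used only as a check. It differed from log2(count + 0.5) by a constant per library to within 9.95e-14, and the single-library tables equalled the joint table in 390170 of 390170 values. Alleles used to initiate tumours are left out of this account.

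Groups were taken from the labels. Genes were filtered with filterByExpr (minimum count 10, total 15), scaled by TMM (edgeR 4.0.16) and fitted with voom and limma 3.58.1 in R 4.3.3, KPG1 against KP, after the study's methods except for its filter on TPM. p-values were adjusted by Benjamini-Hochberg over all 16216 genes, with 0.05 as threshold. Chain ratios used counts plus 0.5 and a 2-sided exact permutation test. Lengths, coordinates and coding sequences came from GENCODE M21, in which all 44 members matched, and promoters from RefSeq on GRCm38.p6. The fits were tested on simulated data. Alternatives were edgeR's quasi-likelihood test, DESeq2 1.42.0, other scaling and filters, quality weights, a replicate block, the sample number as a term, and each library left out; leaving out KP 1 and KP 5 together was chosen after seeing the data. Members, gene lists (collagen making, trimming and crosslinking, breakdown, receptors; markers of fibroblasts, activated fibroblasts, pericytes and smooth muscle, endothelium, mesothelium, epithelium, alveolar type 1, immune, chondrocyte and Schwann cells) and tests were chosen with earlier results of these data known. Values in every library are given for tested Col1, Col3, Col4 and Col5 chains, the 8 other tested chains with the highest level per length and the 5 members with the smallest p. Up to 4 genes per pathway list were named by smallest p. The limit for a count of 0 covers counting error only.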

Additional observations from a re-analysis of the deposited data

Results flagged for a closer look

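In 90 groups of 5 values (named chains, ratios and sums in KP or KPG1), 4 held a tumour whose gap to the nearest other value, as a share of the group's whole range, both on the log2 scale, was above Dixon's 95% critical value of 0.71; chance gives about 4.5. Of these, 2 concern the same tumour, KPG1 1. Its Col4a2 level was 1355 CPM against 837 to 957 CPM in the other 4 KPG1 tumours (gap 0.721), and its summed collagen level was 5798 CPM against 3639 to 3995 CPM (gap 0.799). In KP, Col4a5 stood at 126 CPM in KP 1 against 55.6 to 68.8 CPM in the other 4 (gap 0.741). The ratio of Col4a5 to Col4a6 was 28.6 in KP 5 against 3.13 to 5.83 in the other KP tumours (gap 0.719), where Col4a6 was low at 2.00 CPM.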

How the results depend on the processing

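No member passed an adjusted p of 0.05 under any alternative, and the lowest adjusted p of a member was 0.181, by DESeq2, where 1 member had none. Over all genes, those past the threshold numbered 10 higher and 18 lower. The number lower was 29 by edgeR, 423 by DESeq2, 31 without a filter, 177 with quality weights, 1 with the replicate block, 4 with the sample number and 44 without KP 1 and KP 5. The number higher was 125 by DESeq2, 6 at a mean CPM of at least 1, 51 with quality weights, 4 with the replicate block and 4 with the sample number. Leaving out each tumour gave 3 to 71 higher and 1 to 223 lower, the most without KP 5.

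Members at an unadjusted p under 0.05 and higher numbered 0 with quality weights, 9 with the sample number, 0 without KP 1 and KP 5, and 0 to 4 with 1 tumour left out. Lower ones numbered 1 by DESeq2, 1 with the sample number and 0 to 1 with 1 tumour left out. The fitted log2 fold change turned by edgeR for Col5a3 (-0.0234), Col6a1 (0.0586), Col15a1 (-0.00858) and Col23a1 (0.10), and by DESeq2 for Col5a3 (-0.0333), Col6a1 (0.0590), Col15a1 (-0.0192) and Col23a1 (0.10). It turned with quality weights for Col4a2 (-0.0285), Col4a4 (-0.18), Col6a2 (-0.19) and Col15a1 (-0.0711), and with the sample number for Col4a6 (0.63), Col6a1 (0.19), Col12a1 (-0.0230) and Col23a1 (0.0856). Without KP 1 and KP 5 it turned for Col4a5 (0.0197), Col6a2 (-0.20) and Col15a1 (-0.27).

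With 1 tumour left out, values crossed 0 for Col4a4 (-0.23 to 0.18), Col4a5 (-0.25 to 0.0554), Col4a6 (-0.72 to 0.45), Col6a1 (-0.62 to 0.0506), Col6a2 (-0.15 to 0.37), Col12a1 (-0.0657 to 0.21), Col15a1 (-0.12 to 0.20) and Col23a1 (-0.46 to 0.29). Differences of log2 ratios crossed 0 for Col1a1 to Col1a2 (-0.25 to 0.0344), Col3a1 to Col1a1 (-0.0406 to 0.18), Col5a1 to Col5a2 (-0.0674 to 0.0546), Col4a5 to Col4a6 (-0.32 to 0.48), Col6a1 to Col6a2 (-0.61 to 0.0686) and Col8a1 to Col8a2 (-0.63 to 0.19). All 7 fibrillar chains stayed above 0 in each of these fits. The causes were not tested.

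The labels' replicate numbers do not pair the tumours: same-numbered tumours gave correlations of their deviations from -0.17 to 0.07. The replicate block left 2 members at an unadjusted p under 0.05, Col18a1 and Col6a3, and turned Col23a1 (0.0182). Slc2a1 passed the threshold by DESeq2 (adjusted p = 0.000255), with quality weights (adjusted p = 0.0171), without KP 5 (adjusted p = 0.0220) and without KP 1 and KP 5 (adjusted p = 0.0161). Chains with few counts limit precision, as the 12 untested members show.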
